A study of Mus musculus with 26 samples.

Results

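Dusp1, Dusp2, Dusp6 and Dusp10 encode dual-specificity MAP kinase phosphatases, and their transcripts were followed in S49 cells exposed to a cyclic AMP (cAMP) analog. The members were all probe sets whose single gene symbol is one of these 4 names: 5 of the 22626 probe sets on the arrays, for 4 of the 12393 genes with a symbol of their own. Dusp10 had a pair of probe sets, 1417164_at and 1417163_at, and the other genes had a single one (Dusp1 1448830_at, Dusp2 1450698_at, Dusp6 1415834_at). No filter on low values was applied, so all 5 were tested.

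S49 is a mouse T-lymphoma line. Kin- cells are S49 mutants without functional protein kinase A (PKA), through which cAMP acts on most of its targets. RNA of each line was measured on 13 arrays: 4 of untreated cells (0 h) and 3 at each of 2, 6 and 24 h with the membrane-permeable analog 8-CPT-cAMP at 100 µM, in the 8 groups Kin- 0, 2, 6 and 24 h and WT 0, 2, 6 and 24 h. The labels name no separate cultures, so the spread behind each p-value is that between arrays and may be technical, and the later times have no untreated arrays of their own. Kin- and WT are each a single line, so anything else in which the lines differ cannot be told apart from the missing kinase activity.

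The deposited scores come with no stated scale. The square root of each served as its level, in square-root units, because its range of 0.612 to 16.4 resembles that of a log2 intensity, and a change of 1 unit is not known to be a doubling. Column medians of the root lay between 5.40 and 5.53. T-cell markers matched the labelled cell type: 7 of 8 measured ones were above 5.50, with Cd3d highest at 12.54 and Cd5 lowest at 3.23, while 0 of 5 B-cell, 1 of 6 myeloid (Csf1r, 5.73) and 0 of 6 stromal or epithelial markers were. The 8 T-cell markers summed to 80.8 to 82.23 on the Kin- arrays, and in WT to 86.44 to 87.35 at 24 h, against 82.29 to 84.17 at 0 h. On the Kin- arrays myeloid markers summed to 23.22 to 24.26 and B-cell markers to 18.17 to 19.72. In WT at 24 h myeloid markers summed to 24.44 to 26.93, against 23.67 to 24.27 in WT at 0 h, B-cell markers to 19.8 to 21.79, against 19.17 to 20.42, and stromal or epithelial markers to 20.39 to 22.13, against 21.01 to 21.24. The part of these markers in the results was not tested. The transcripts of the catalytic PKA subunits did not mark the Kin- line: Kin- minus WT at 0 h was −0.21 for Prkaca (adjusted p = 0.395) and −0.03 for Prkacb (adjusted p = 0.999).

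MAP kinases (ERK, JNK and p38) are switched on when a MAP kinase kinase phosphorylates a threonine and a tyrosine of their activation loop, and dual-specificity phosphatases switch them off by removing both phosphates. Dusp1 (MKP-1), a nuclear phosphatase of p38, JNK and ERK, is known as an immediate-early gene, and so is Dusp2 (PAC-1), a nuclear phosphatase found mainly in blood cells. Dusp6 (MKP-3) is cytoplasmic, prefers ERK and is itself induced by ERK signalling, which makes its transcript a common readout of that pathway. Dusp10 (MKP-5) prefers p38 and JNK and restrains T-cell activation. PKA phosphorylates the transcription factor CREB, which binds the cAMP response element (CRE) in promoters.

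The promoter windows of the 4 genes are shown because the CRE is the DNA element through which PKA is best known to act. They run from 250 bases before to 50 after the RefSeq start on GRCm38.p6, 5′ to 3′ on the gene's strand, and capitals mark the full CRE TGACGTCA and its half-site TGACG on either strand. The windows are chr17:26508423-26508722 (minus strand) for Dusp1, chr1:184034131-184034430 (plus) for Dusp10, chr2:127335909-127336208 (plus) for Dusp2 and chr10:99262981-99263280 (plus) for Dusp6.
Dusp1: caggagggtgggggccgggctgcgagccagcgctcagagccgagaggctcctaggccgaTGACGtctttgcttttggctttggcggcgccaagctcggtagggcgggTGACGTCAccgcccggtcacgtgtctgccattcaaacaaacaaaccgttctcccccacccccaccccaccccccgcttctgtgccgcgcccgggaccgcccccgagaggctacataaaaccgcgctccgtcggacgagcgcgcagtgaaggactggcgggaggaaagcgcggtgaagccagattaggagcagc
Dusp10: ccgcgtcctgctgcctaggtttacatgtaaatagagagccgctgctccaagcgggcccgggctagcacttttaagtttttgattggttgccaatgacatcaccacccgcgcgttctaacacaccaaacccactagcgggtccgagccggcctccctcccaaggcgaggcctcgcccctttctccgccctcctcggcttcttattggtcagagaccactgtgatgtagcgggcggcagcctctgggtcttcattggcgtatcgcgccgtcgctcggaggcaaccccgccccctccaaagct
Dusp2: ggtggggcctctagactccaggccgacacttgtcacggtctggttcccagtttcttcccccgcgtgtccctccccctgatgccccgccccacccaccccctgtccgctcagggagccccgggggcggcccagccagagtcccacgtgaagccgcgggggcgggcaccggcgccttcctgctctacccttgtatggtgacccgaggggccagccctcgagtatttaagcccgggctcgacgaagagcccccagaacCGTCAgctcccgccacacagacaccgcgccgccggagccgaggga
Dusp6: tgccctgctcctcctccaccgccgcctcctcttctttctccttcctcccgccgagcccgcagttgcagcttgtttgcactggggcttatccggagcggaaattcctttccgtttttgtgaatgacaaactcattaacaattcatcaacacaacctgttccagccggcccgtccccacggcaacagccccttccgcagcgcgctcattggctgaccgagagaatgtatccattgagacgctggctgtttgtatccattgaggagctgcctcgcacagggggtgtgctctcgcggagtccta

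Dusp1 had a full CRE at −143 to −136 from the start. It also had 3 half-sites, of which the one at −191 to −187 stood alone and the other 2 lie inside the full CRE. Dusp2 had 1 half-site, on the minus strand at 6 to 10 bases past the start. Dusp6 and Dusp10 had neither element in these windows. The E-box CACGTG was present in Dusp1 (−126 to −121) and Dusp2 (−109 to −104), and the AP-1 letters TGACTCA or TGAGTCA and the CArG box, the site of serum response factor, were in 0 of the 4 windows. Both strands were searched with exact letters, except that the CArG box was CC, then 6 letters that are A or T, then GG. Near matches were not searched for. The Dusp10 window holds tgacatca, which differs from the full CRE in 1 letter. Of 32851 RefSeq promoter windows, 1.79% held the full CRE, 20.8% the half-site, 7.15% the E-box, 5.20% an AP-1 site and 1.63% a CArG box. The next shares are per gene, where any window of a gene sufficed, and cannot be compared with those per window. Among measured genes with a window, the full CRE was in 6.45% of 729 genes higher in WT at 2 h. It was in 2.36% of 848 genes lower, and 2.99% of all 9887, as a description without a test. At 6 h it was in 5.23% of the genes higher and 2.72% of those lower, and at 24 h the shares were alike, 3.68% and 3.88%. Of the pair of members that rose in WT cells, Dusp1 and Dusp10, the first held the full CRE in this window and the second did not.

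**Figure D1:**
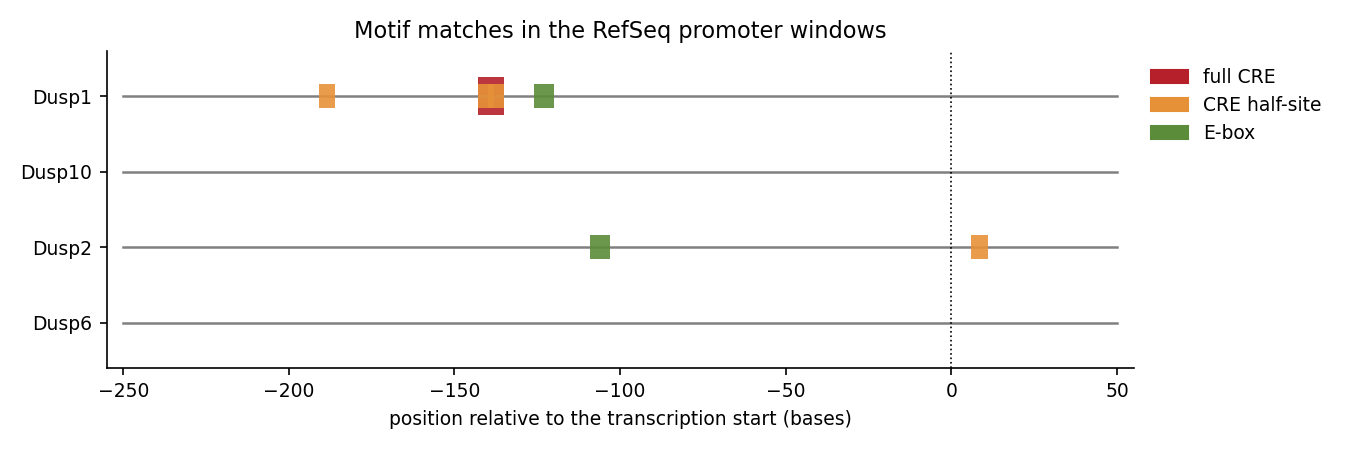
Motif matches in the 4 promoter windows, with position in bases relative to the transcription start (dotted line). Dusp1 holds the full CRE (red, with 2 half-sites in orange inside it), a separate half-site and an E-box (green), Dusp2 holds an E-box and a half-site, and the lines of Dusp10 and Dusp6 carry no match.

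In WT cells the analog raised Dusp1 and Dusp10 by 2.72 to 4.03 units at every time, lowered Dusp2 at 2 h, and left Dusp6 short of the threshold. In Kin- cells none of the 5 probe sets passed at any time. Of the 4 genes, 2 rose and 1 fell at 2 h in WT, where 7.11% of all probe sets were higher and 7.25% lower by the same test (limma, Benjamini-Hochberg adjusted p under 0.05 over all 22626 probe sets). At 6 h 2 rose and 0 fell, against 9.52% higher and 10.1% lower of all. At 24 h 2 rose and 0 fell, against 14.4% and 15.6%. All 3 times were set against the same untreated arrays.

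Dusp1, the nuclear phosphatase with the CRE, had levels in Kin- cells of 5.96, 5.08, 6.33 and 6.85 at 0 h, 5.68, 6.13 and 6.16 at 2 h, 6.16, 6.38 and 6.51 at 6 h, and 5.59, 6.32 and 6.19 at 24 h. In WT cells it had 6.68, 5.42, 6.82 and 7.60 at 0 h, 10.20, 10.81 and 10.96 at 2 h, 9.38, 10.68 and 10.39 at 6 h, and 8.85, 10.29 and 9.80 at 24 h. Every treated WT array lay above every untreated WT array and every Kin- array, while the untreated lines overlapped. The rise in WT was 4.03 ± 0.45 at 2 h (SE, n = 3 against 4; limma adjusted p = 1.57e-06), placing Dusp1 26th among the rising probe sets of that time. It was 3.52 ± 0.45 at 6 h (limma adjusted p = 6.19e-06) and 3.02 ± 0.45 at 24 h (limma adjusted p = 1.49e-05). The means, 10.66, 10.15 and 9.64, fell in the order of time. So did the levels within each run of array numbers (2 to 4, 17 to 19 and 37 to 39), though the labels do not say that a run pairs its arrays. With the runs pooled neighbouring times overlapped, and neither 6 against 2 h (−0.51, limma adjusted p = 0.468) nor 24 against 6 h (−0.50, limma adjusted p = 0.652) passed. Dusp1 is best known for brief induction by mitogens and stress, and here its transcript was still high at 24 h.

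Dusp10, the p38 and JNK phosphatase, had the smallest SE of the 5 probe sets on its brighter one, 1417164_at. In Kin- cells this probe set read 7.90, 7.91, 7.84 and 7.54 at 0 h, 8.08, 8.05 and 8.02 at 2 h, 7.92, 7.82 and 8.16 at 6 h, and 8.11, 7.70 and 8.11 at 24 h. In WT cells it read 8.89, 8.41, 8.90 and 8.71 at 0 h, 12.18, 12.46 and 12.32 at 2 h, 11.08, 11.75 and 11.53 at 6 h, and 11.68, 11.89 and 12.28 at 24 h. The treated WT arrays formed a block well above all others, and the untreated WT arrays lay in turn above all 13 Kin- arrays. The rise in WT was 3.59 ± 0.16 at 2 h (SE, n = 3 against 4; limma adjusted p = 3.99e-12), 2.72 ± 0.16 at 6 h (limma adjusted p = 2.53e-10) and 3.23 ± 0.16 at 24 h (limma adjusted p = 5.41e-12). The response dipped between: 6 h was below 2 h by −0.87 ± 0.17 with all arrays lower (limma adjusted p = 0.00186), and 24 h was above 6 h by 0.50 ± 0.17 without passing (limma adjusted p = 0.0504). The 3 arrays of Kin- at 2 h all lay above those of Kin- at 0 h, by 0.25, at an adjusted p of 1.

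The dimmer Dusp10 probe set, 1417163_at, gave the same rise with more scatter. It read 4.83, 4.95, 5.84 and 5.42 in Kin- at 0 h and 6.37, 5.81, 7.44 and 6.96 in WT at 0 h, and the treated arrays ran from 4.24 to 6.05 in Kin- and from 8.75 to 10.44 in WT. Its rises in WT were 3.21 ± 0.48, 2.98 ± 0.48 and 2.85 ± 0.48 at 2, 6 and 24 h (SE; limma adjusted p = 5.66e-05, 9.22e-05 and 6.16e-05). The dip at 6 h was not seen with it (6 against 2 h −0.22, 95% interval −1.29 to 0.84, limma adjusted p = 0.775), so that dip rests on 1417164_at. Over the 26 arrays the pair of probe sets had a Pearson r of 0.96.

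Dusp2, the blood-cell phosphatase, moved the other way at 2 h and came back. In Kin- cells it had 8.16, 8.06, 7.64 and 7.59 at 0 h, 7.90, 7.70 and 7.76 at 2 h, 8.13, 7.67 and 7.88 at 6 h, and 8.32, 7.90 and 7.94 at 24 h. In WT cells it had 7.96, 8.39, 8.41 and 8.05 at 0 h, 7.22, 6.99 and 6.90 at 2 h, 8.63, 7.87 and 7.71 at 6 h, and 8.83, 8.83 and 8.34 at 24 h. The WT 2 h arrays were the lowest of all 26, and every other neighbouring pair of groups in the order of means overlapped. The fall at 2 h was −1.16 ± 0.20 (SE, n = 3 against 4; limma adjusted p = 0.000254), 247th among the falling probe sets. From 2 to 6 h Dusp2 rose by 1.03 ± 0.21 with all arrays higher (limma adjusted p = 0.00261), and against 0 h it stood at −0.14 at 6 h (limma adjusted p = 0.796) and 0.46 ± 0.20 at 24 h (limma adjusted p = 0.0943). The step of 0.60 between 6 and 24 h had an adjusted p of 0.0581 by limma.

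Dusp6, the ERK readout, was read not far above the lower quartile of an array (2.98 to 3.24), and the table holds no detection calls, so whether its probe set was above background cannot be told. In Kin- cells it had 3.40, 3.48, 3.82 and 3.83 at 0 h, 3.70, 3.22 and 3.74 at 2 h, 3.14, 3.78 and 3.66 at 6 h, and 3.55, 3.22 and 3.71 at 24 h. In WT cells it had 3.48, 3.57, 3.63 and 3.83 at 0 h, 4.14, 4.59 and 4.07 at 2 h, 3.73, 5.05 and 3.91 at 6 h, and 3.98, 3.81 and 3.91 at 24 h. The WT 2 h arrays all lay above the WT 0 h arrays, but the difference of 0.64 ± 0.24 (SE; 95% interval 0.14 to 1.13) had a limma adjusted p of 0.0871. At 6 h the difference was 0.60 ± 0.24 (limma adjusted p = 0.0891) and depended on array 18, the one at 5.05: without that array it was 0.19 (adjusted p = 0.696). Without array 3, the one at 3.73, it was 0.85 and passed (adjusted p = 0.0183), and without array 18 the smaller spread let the 2 h difference pass at 0.64 (adjusted p = 0.0144). At 24 h it was 0.28 ± 0.24 (limma adjusted p = 0.527). In the order of the 8 group means no neighbouring groups of Dusp6 were apart.

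**Figure D2:**
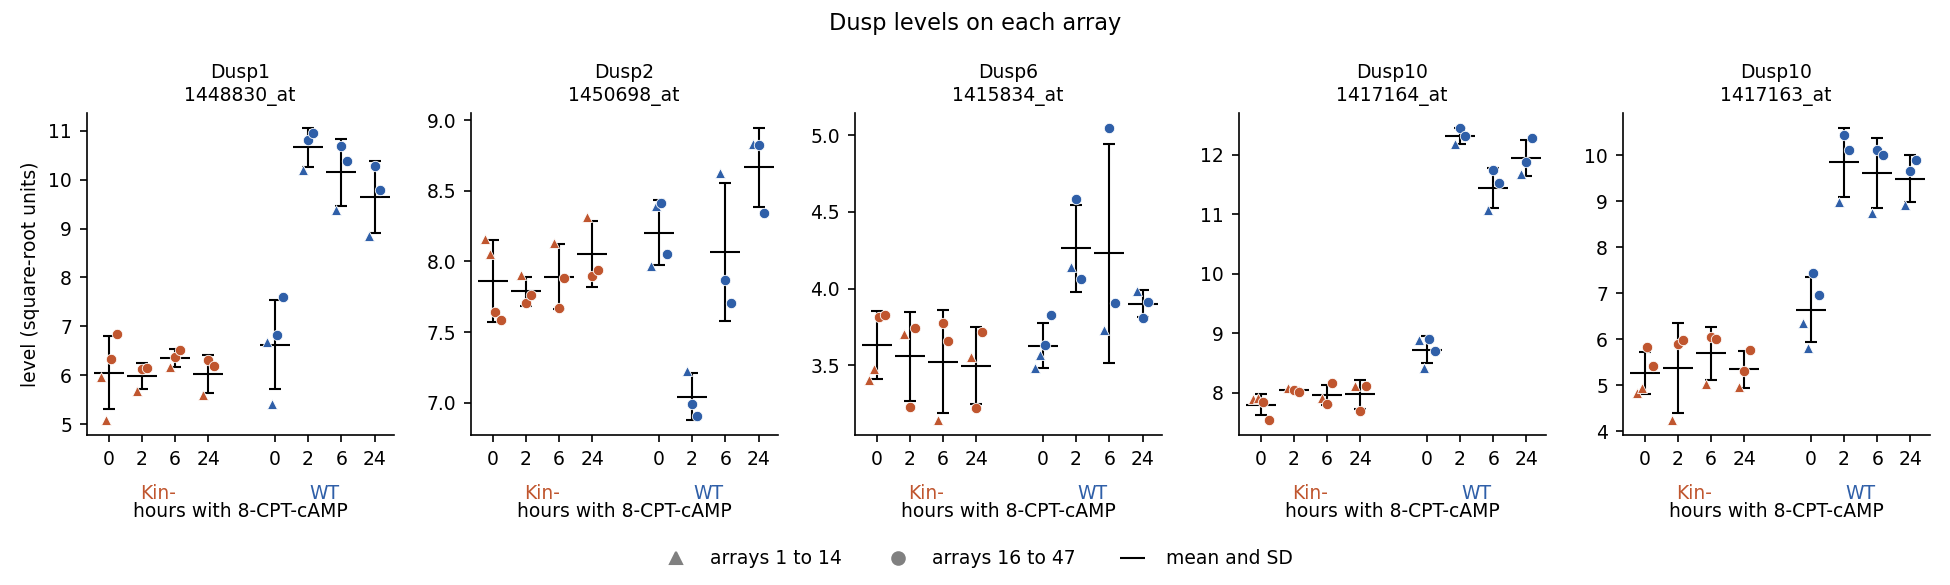
Level of each Dusp probe set on every array in square-root units (vertical axes, which do not start at 0 and differ between panels), by line and hours with 8-CPT-cAMP; triangles are arrays 1 to 14, circles arrays 16 to 47, and bars the group mean and SD. Treated WT arrays stand clear of the rest for Dusp1 and both Dusp10 probe sets, WT 2 h stands lowest for Dusp2, and the groups of Dusp6 run into each other.

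Between successive WT times, 1 of the 4 genes rose (Dusp2) and 1 fell (Dusp10) from 2 to 6 h, where 13.0% of all probe sets passed in either direction. From 6 to 24 h 0 of the 4 passed by limma, against 17.8% of all, and 5951 probe sets had an unadjusted p under 0.05 there.

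In Kin- cells the analog moved nothing past the threshold. The changes at 2, 6 and 24 h were −0.07, 0.30 and −0.02 for Dusp1, −0.07, 0.03 and 0.19 for Dusp2, −0.07, −0.11 and −0.14 for Dusp6, and 0.25, 0.17 and 0.18 for Dusp10 (1417164_at; 0.11, 0.43 and 0.09 on 1417163_at), all with a limma adjusted p of 1. Across the array, 0 of 22626 probe sets passed at each of the 3 times (0.0% at 2 h, 0.0% at 6 h and 0.0% at 24 h by limma). At an unadjusted p under 0.05 there were 489, 429 and 491 of them. The phosphatases did not stand apart in this from the other transcripts on the arrays.

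The difference of the responses, Kin- minus WT, tests the lines against each other directly. For Dusp1 it was −4.10 at 2 h (limma adjusted p = 0.000237), −3.22 at 6 h (limma adjusted p = 0.00171) and −3.04 at 24 h (limma adjusted p = 0.00112). For Dusp10 (1417164_at) it was −3.34, −2.56 and −3.05, with limma adjusted p of 8.31e-09, 3.4e-07 and 8.52e-09. These sizes nearly equal the WT responses themselves. The other Dusp10 probe set gave −3.10, −2.55 and −2.76 (limma adjusted p = 0.00569, 0.0166 and 0.00434). For Dusp2 the difference passed at 2 h, at 1.09 (limma adjusted p = 0.0191; 0.0546 without Kin- 2 h array 6 and 0.057 without WT 2 h array 37, at 1.03 and 1.02), and not past the threshold at 6 h (0.17, adjusted p = 0.933) or 24 h (−0.27, adjusted p = 0.683). For Dusp6 the differences of −0.71, −0.71 and −0.41 had limma adjusted p of 0.29, 0.245 and 0.542, and the 95% interval at 2 h ran from −1.41 to −0.01. Counted by gene, 3 of 4 differed at 2 h, 2 at 6 h and 2 at 24 h, where 6.92%, 10.8% and 21.5% of all probe sets did.

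**Figure D3:**
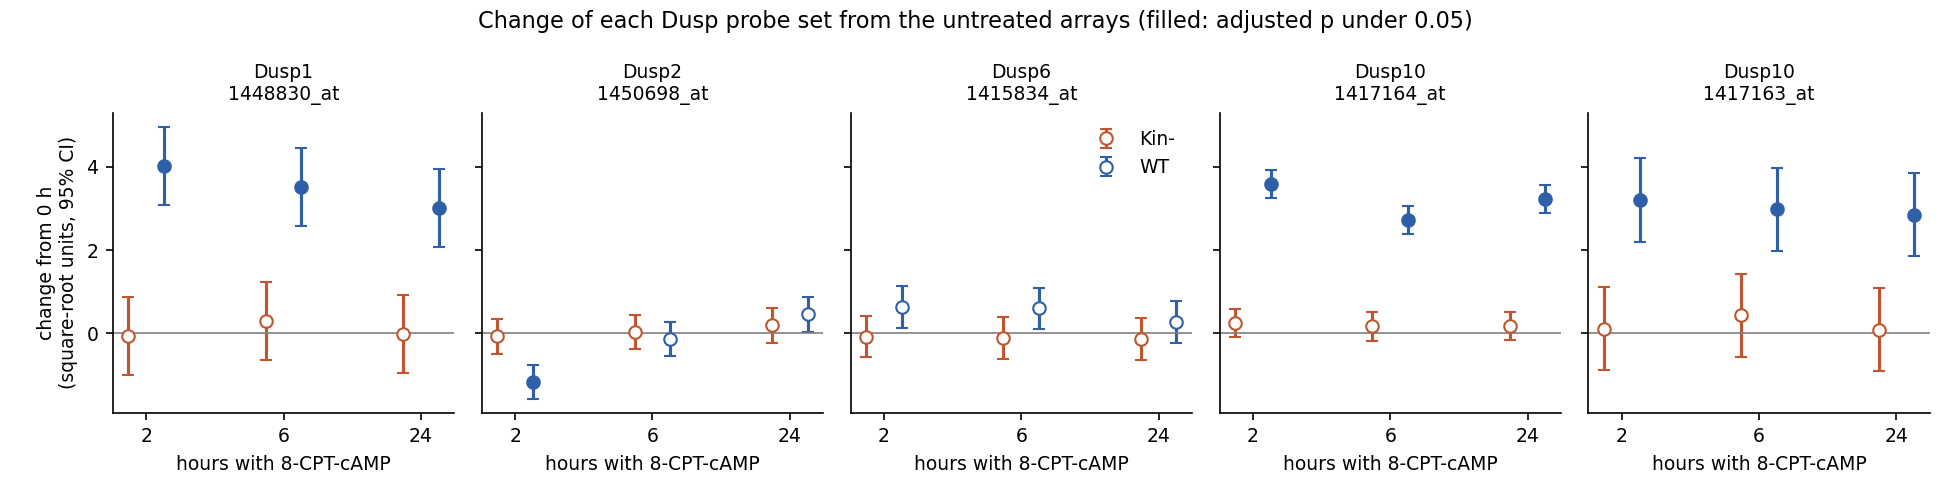
Change of each Dusp probe set from the untreated arrays of its line, in square-root units with 95% confidence intervals, at 2, 6 and 24 h; Kin- is orange, WT blue, and filled points have a limma adjusted p under 0.05. WT points of Dusp1 and Dusp10 lie between 2.72 and 4.03 (2.85 to 3.21 for 1417163_at), Dusp2 has a filled point below 0 at 2 h, and all Kin- points are open.

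Between the untreated lines 1 of the 4 genes passed, Dusp10, and it was lower. On 1417164_at it averaged 7.80 ± 0.18 in Kin- and 8.73 ± 0.23 in WT (SD, n = 4 each), with all Kin- arrays lower and a difference of −0.93 ± 0.15 (SE; limma adjusted p = 0.000835), where 3.01% of all probe sets passed. On 1417163_at it averaged 5.26 ± 0.46 in Kin- and 6.64 ± 0.71 in WT, a difference of −1.38 ± 0.44 that did not pass (limma adjusted p = 0.115). Its arrays overlapped only when early and late array numbers were pooled. On arrays 1 to 14 Kin- read 4.83 and 4.95, against 6.37 and 5.81 in WT. On arrays 16 to 47 Kin- read 5.84 and 5.42, against 7.44 and 6.96 in WT. The differences were −0.57 for Dusp1 (adjusted p = 0.776), −0.34 for Dusp2 (adjusted p = 0.544) and 0.00 for Dusp6 (adjusted p = 0.999), by limma. RNA was measured in bulk, so fewer cells with a transcript and less transcript per cell cannot be told apart.

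The arrays numbered 1 to 14 (10 arrays) differed from those numbered 16 to 47 (16 arrays), and every group held both. The mix was uneven, with a larger share of arrays 1 to 14 in the untreated groups than in the treated groups. Dusp1 was lower on the arrays 1 to 14 in 8 of 8 groups, with differences of group means from −1.19 to −0.28, and so was 1417163_at of Dusp10 (−1.70 to −0.57). Dusp2 was higher on them in 7 of 8 groups, while 1417164_at went both ways (lower in 3, higher in 3). The WT responses at 2 and 24 h kept their direction in either set. At 2 h Dusp1 changed by 4.15 on arrays 1 to 14 and 3.68 on arrays 16 to 47, Dusp10 (1417164_at) by 3.53 and 3.59, and Dusp2 by −0.95 and −1.28. At 24 h Dusp1 changed by 2.80 and 2.83, and Dusp10 by 3.03 and 3.28. The difference of untreated Dusp10 was −0.74 on arrays 1 to 14 and −1.11 on arrays 16 to 47. On arrays 1 to 14 each treated group is a single array, and the WT responses of Dusp1 and Dusp2 given here did not pass there. The reason was not tested. For Dusp2 at 6 h the sets went opposite ways, 0.45 on arrays 1 to 14 and −0.44 on arrays 16 to 47, so its level at 6 h depended on the set.

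The other MAP kinase phosphatases were too few to be set apart from the background. For the lists that follow, the share of all 12393 genes that rose in WT was 7.25%, 11.0% and 16.3% at 2, 6 and 24 h, and the share that fell was 8.44%, 11.1% and 16.3%. Dusp7, Dusp8, Dusp9 and Dusp16 were the measured 4 of 6 on that list (Dusp7 and Dusp9 act on ERK, Dusp8 and Dusp16 on JNK and p38), and 0 of 4 passed in WT at any time by limma, which at these shares is not a result about the family. Their WT changes at 2, 6 and 24 h were −0.11, −0.42 and −0.12 for Dusp7 (the adjusted p at 6 h was 0.0611), 0.06, −0.05 and 0.07 for Dusp8, −0.10, −0.15 and −0.20 for Dusp9, and −0.17, −0.23 and −0.21 for Dusp16. The group means of Dusp8 and Dusp16 all lay below 3 units, and those of Dusp9 in WT at 3.17 to 3.37, lower than Dusp6, so whether these 3 were above background cannot be told either. Dusp9 scattered within Kin-, at 4.97 ± 1.31 untreated, against 3.37 ± 0.26 in WT (SD, n = 4 each), a difference of 1.60 that did not pass (limma adjusted p = 0.24).

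The atypical dual-specificity phosphatases are small enzymes that mostly lack the MAP kinase binding domain, and 12 of 16 were measured. In WT 1 rose and 4 fell at 2 h, and 1 rose and 2 fell at both 6 and 24 h. The riser was Dusp11, a phosphatase that acts on RNA, with changes of 1.04, 1.05 and 1.05 at 2, 6 and 24 h (limma adjusted p = 0.000175 at 2 h). Untreated Dusp11 was also higher in Kin-, by 0.78 (limma adjusted p = 0.00637). Dusp14, which is known to restrain T-cell receptor signalling, fell by 0.71, 0.84 and 0.48 at the 3 times, and Dusp12 fell by 0.53, 0.61 and 0.80. Dusp22, another restraint on T-cell receptor signalling, fell by 0.67 at 2 h. The lines' responses differed for Dusp11 at each time (−1.19, −1.15 and −1.18), for Dusp14 at 6 h (0.91) and for Dusp12 at 6 and 24 h (0.80 and 0.68).

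Phosphatases of other families that act on MAP kinases, 8 of 9 measured, had 3, 4 and 0 rises and 0 falls at 2, 6 and 24 h in WT. Ppm1d (Wip1), a p38 phosphatase, rose by 1.10 ± 0.10 at 2 h (SE; limma adjusted p = 7.17e-08), and its response differed from that of Kin- by −1.23. Ppm1b rose by 0.40 and 0.50 at 2 and 6 h, and Ppp2ca, a catalytic subunit of PP2A, by 0.40 and 0.34.

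The kinases upstream gave a mixed picture. Of the MAP kinases themselves 10 of 14 were measured, and 0, 0 and 1 rose while 2, 1 and 2 fell at 2, 6 and 24 h. Mapk14, which encodes p38 alpha, the substrate of Dusp1 and Dusp10, fell by 0.54, 0.47 and 0.39 at the 3 times (limma adjusted p = 0.000393, 0.00117 and 0.0034), and the lines' responses differed at 2 h (0.55) and 6 h (0.47). Nlk, an atypical MAP kinase, fell by 0.52 at 2 h and rose by 1.00 at 24 h.

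The MAP kinase kinases of p38 went opposite ways at 2 h. Map2k3 rose by 1.23, 0.99 and 0.50 at 2, 6 and 24 h (limma adjusted p = 6.03e-06 at 2 h), while Map2k6 fell by 1.99 ± 0.26 at 2 h (SE; limma adjusted p = 1.05e-05). The fall of Map2k6 had gone by 6 h (−0.031 against 0 h), and its change of −0.645 at 24 h did not pass. Map2k5, the kinase of ERK5, fell by 0.75 and 1.01 at 2 and 6 h. Kin- minus WT differences of response at 2 h were −1.16 for Map2k3, 2.06 for Map2k6 and 0.84 for Map2k5, all past the threshold. Of the 6 of 7 measured in this class, 1, 1 and 1 rose and 2, 1 and 0 fell.

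One level higher, 13 of 17 MAP3 kinases and Raf kinases were measured, with 2, 3 and 3 rises and 1, 0 and 0 falls. Map3k1 (MEKK1) rose by 1.01, 0.72 and 1.18 at the 3 times, and Araf fell by 0.44 at 2 h and rose by 0.67 at 24 h. Of the kinases that MAP kinases activate, 5 of 11 were measured, with 1, 2 and 2 rises and 1, 0 and 0 falls. Mknk2, a kinase of the translation factor eIF4E, rose by 0.68, 0.99 and 0.79. Of the inhibitors that act on Ras and ERK, 10 of 12 were measured, with 2, 3 and 2 rises and 0, 0 and 1 falls. Spred2, a membrane inhibitor of Raf activation, rose by 1.24 at 2 h, and Rasa3, a Ras GTPase activator, by 1.86 at 24 h.

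Transcripts known to respond to ERK went both ways. All 17 of 17 were measured, and 4 rose (23.5%) and 2 fell (11.8%) at each time, against the shares of all genes above, with median changes of 0.10, −0.03 and 0.00 beside 0.05, −0.03 and −0.01 over all 12393 genes. Fos rose by 5.78, 4.32 and 2.46 and Junb by 2.20, 1.12 and 1.90. Both are also known as direct targets of CREB. Untreated Fos averaged 3.59 in WT, a level like that of Dusp6 that cannot be told from background, so the size of its rise is uncertain. Myc, which both mitogens and ERK raise, fell by 2.46, 2.14 and 2.12 (limma adjusted p = 8.58e-06 at 2 h), and Phlda1 fell by 1.07, 1.90 and 2.90. Kin- minus WT differences of response at 2 h were −6.31 for Fos and 2.57 for Myc.

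The messages of Dusp1 and other early genes carry AU-rich elements, to which decay and stabilising proteins bind, and 5 of 6 such proteins were measured. They gave 1, 2 and 2 rises and 0, 1 and 2 falls. Zfp36 (tristetraprolin), a decay factor whose targets include Dusp1 mRNA, rose by 3.79, 1.69 and 1.38 (limma adjusted p = 8.87e-11 at 2 h), so it and Dusp1 were raised together from 2 to 24 h. Elavl1 (HuR), a stabilising factor, fell by 0.74 at 24 h. Hnrnpd, on the same list, had the larger fall at 24 h, with changes of −0.438 at 6 h and −1.387 at 24 h. Zfp36l2 rose by 0.689 at 6 h and 1.03 at 24 h. What these changes do to the decay of Dusp1 mRNA was not tested. Of the CREB family and its coactivators, 6 of 9 measured, 1, 1 and 3 rose and 0 fell. The CREB-family gene Crem rose by 6.07, 5.55 and 5.71, more units than Dusp1 or Dusp10. Of the PKA subunits and inhibitors, 8 of 9 measured, 2, 2 and 2 rose and 0, 0 and 1 fell. Over all these lists together, 104 of 133 genes were measured, and 18, 23 and 21 rose (17.3%, 22.1% and 20.2%, against 7.25%, 11.0% and 16.3% of all genes) while 12, 7 and 10 fell (11.5%, 6.73% and 9.62%, against 8.44%, 11.1% and 16.3%) at 2, 6 and 24 h. The list is a choice made with these results known, so these shares single out nothing. In Kin- 0 passed at each time by limma.

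**Figure D4:**
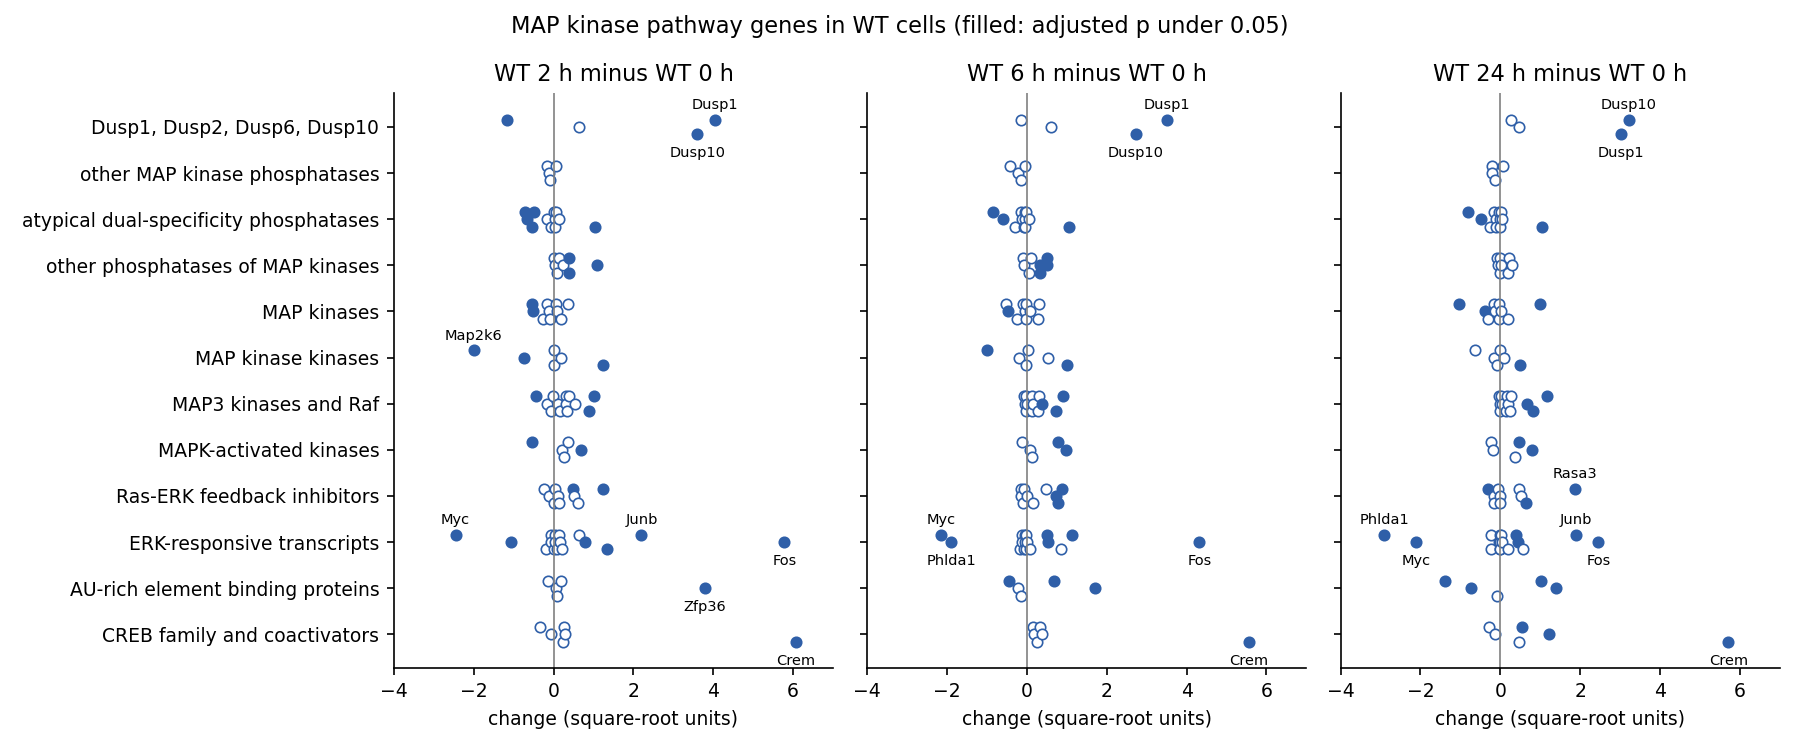
Change in WT cells at 2, 6 and 24 h against 0 h, in square-root units, of the 4 phosphatases and of each measured gene in the pathway lists (rows; small vertical steps only separate points); filled points have a limma adjusted p under 0.05. Dusp1 and Dusp10 stand far right of every other phosphatase at each time, and Crem and, at 2 and 6 h, Fos lie further right.

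Over the 26 arrays, the level of Dusp1 was most like that of Id2 (Pearson r 0.986), an inhibitor of basic helix-loop-helix factors, followed by Nsun4, Tpm4, Vps37b and Hivep1 (0.968 to 0.965). Dusp10 was most like Tex2 (0.987), Slain1, Ptpn22, Vps37b and Nin (0.979 to 0.984). Ptpn22, at 0.980, is a tyrosine phosphatase that restrains T-cell receptor signalling. Vps37b is on both lists, and Dusp1 and Dusp10 themselves had an r of 0.956. For Dusp2 the nearest were Cmtm7 and Acp5 (0.918 each), Tap2, Rabgap1l and Nrros, and for Dusp6 Rab5a (0.830), Pdcd10, Fndc3a, Terf2 and Tor1aip1. Dusp2 had an r of −0.205 with Dusp1 and −0.078 with Dusp10, and Dusp6 one of 0.733 with Dusp1. All of these points share the same arrays. The 8 groups were pooled, so each r includes the changes between groups. Likeness within groups was not tested. Ranked by Spearman's rho, 1, 3, 0 and 0 of the 5 names remained for Dusp1, Dusp2, Dusp6 and Dusp10.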

How the data were processed

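Probe set values were read from the series table, 1 column for each of 26 arrays. They are scores that the authors deposited in final form; the sources used here name no software, normalization or scale for the deposited scores. Per the labels, groups follow line and hours of treatment. Levels are the square roots of the scores (power 0.5), taken as log2 intensities by assumption, with no further normalization and no filter. Probe sets were named from the platform annotation: 20380 had 1 symbol, 691 several and 1555 none, and the brightest probe set (highest mean over arrays) stood for a gene in lists.

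A model with 1 mean per group and a common spread was fitted to all 22626 probe sets with limma 3.58.1 (lmFit, eBayes) in R 4.3.3, with no covariate, and p-values were adjusted by Benjamini-Hochberg within each comparison. Adjusted p under 0.05 counted as passed. The median SE was 0.119 units for a treated group against 0 h and 0.168 for a difference of responses. Precision is limited by how few arrays a group has, though not by that alone. For Dusp1 in WT at 2 h the SE was 0.45, against 0.275 with a term for the array set and 0.203 with the array series as a block. The procedure was tested on simulated data with 200 changed probe sets. The simulated noise was independent between arrays, with no shift between the array sets, so that test cannot speak to such a shift. Named genes were all members, every measured gene of the other MAP kinase phosphatases, up to 3 with the largest passing change in each direction of a list, and the 5 most like each member by Pearson r. Not every list gene that met this rule is given in the text. Promoter letters were taken from RefSeq (GRCm38.p6), with 4 of 4 genes matched. Alternatives on the values were powers of the score, its log2, quantile normalization and a mean of at least 4. Those on the model were the array sets (a term, or each alone), the array series as a block, an intensity trend in limma and array weights. The other Dusp10 probe set and each array left out were further alternatives. Members, lists and tests were chosen with earlier results of these data known.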

Additional observations from a re-analysis of the deposited data

Results flagged for a closer look

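The response to the analog differed between the lines for 10 of 15 differences tested (5 probe sets at 3 times, limma adjusted p under 0.05). Of all probe sets, 6.92%, 10.8% and 21.5% did at 2, 6 and 24 h. The 10 are not independent, since Dusp10 enters with a pair of probe sets (Pearson r 0.961) and the 3 times share untreated arrays. They are listed as Kin- minus WT in square-root units. For Dusp1 the difference was −4.10 at 2 h, −3.22 at 6 h and −3.04 at 24 h. For Dusp10 it was −3.34, −2.56 and −3.05 on 1417164_at and −3.10, −2.55 and −2.76 on 1417163_at at the same times. For Dusp2 it was 1.09 at 2 h, the one difference of the 10 in which the WT change was a fall. In 10 untreated groups of 4 arrays (5 probe sets in 2 lines), 0 had an array far from the other 3 by Dixon's test, which chance would find in about 1 of 20. Each group mixed early and late array numbers (WT 1, 13, 16 and 36, Kin- 5, 14, 40 and 44). Where these sets differ, as for Dusp1, the shift widens the range and the test can hardly find a far array. The 0 therefore says little about single arrays.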

How the results depend on the processing

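Of 1772 values for 48 member comparisons under the alternatives, 1681 kept direction and side of the threshold, 29 gained it, 19 lost it and 43 changed sign. The 43 belong to 15 comparisons, of which 0 had passed, and 0 of the 43 passed under the alternative. On arrays 1 to 14 only, with single treated arrays whose spread is assumed to be that of the untreated groups, the threshold was lost for Dusp1 in WT (4.15, 3.33 and 2.80 at 2, 6 and 24 h) and in the differences (−3.99, −2.68 and −2.74), for Dusp2 in WT at 2 h (−0.95), at 6 against 2 h (1.40) and in the difference at 2 h (0.75), and for Dusp10 in WT at 6 h (2.43), 6 against 2 h (−1.10), the untreated lines (−0.74) and the differences (−3.36, −2.42 and −2.83), while Dusp6 passed at 24 h (0.46). Dusp2 passed at 24 h with an array-set term (0.52) and with the series as a replicate block (0.52). Its step from 6 to 24 h passed with a mean of at least 4, the array-set term and the block (0.60 each), arrays 16 to 47 only (0.80) and array weights (0.55), and untreated Dusp2 differed on arrays 16 to 47 only (−0.62). The step of Dusp10 from 6 to 24 h passed at power 0.75 (2.57 in that scale), untransformed (11.7 in deposited scores), after quantile normalization (0.60), with the filter, the array-set term and the block (0.50 each) and with array weights (0.66). Array weights also passed Dusp6 at 2 h (0.70) and 6 h (0.59). The other Dusp10 probe set lost 6 against 2 h (−0.22) and the untreated difference (−1.38).

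The sign changes were these. On arrays 1 to 14 only, Dusp1 in Kin- was 0.161 at 2 h and 0.068 at 24 h, Dusp2 was 0.448 in WT at 6 h and −0.429 in the difference at 6 h, and Dusp6 was 0.264 and 0.112 in Kin- at 2 and 24 h, 0.255 at 24 against 6 h in WT and −0.084 between the untreated lines. On arrays 16 to 47 only, Dusp1 in Kin- at 6 h was −0.142, Dusp2 in Kin- at 2 h 0.118 and Dusp6 in WT at 6 against 2 h 0.154. Dusp1 in Kin- was −0.028 at 6 h with the replicate block and, at 24 h, 0.002 on the log2 scale and 0.0 after quantile normalization. Array weights gave 0.063 for Dusp2 in Kin- at 2 h and 0.091 for its difference at 24 h. Dusp6 at 6 against 2 h was 0.003 untransformed and 0.09 after quantile normalization, and the other Dusp10 probe set gave −0.131 at 24 against 6 h. With 1 array left out, Dusp1 in Kin- ran from −0.393 to 0.199 at 2 h, −0.028 to 0.563 at 6 h and −0.348 to 0.243 at 24 h. Dusp2 ran from −0.417 to 0.044 in WT at 6 h, −0.164 to 0.028 and −0.086 to 0.145 in Kin- at 2 and 6 h, and −0.012 to 0.448 in the difference at 6 h. Dusp6 ran from −0.444 to 0.216 at 6 against 2 h, −0.577 to 0.084 at 24 against 6 h, −0.167 to 0.092, −0.233 to 0.085 and −0.245 to 0.003 in Kin- at 2, 6 and 24 h, and −0.061 to 0.08 between the untreated lines.

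Leaving out 1 array at a time gave 0.38 to 0.62 for Dusp2 at 24 h, 0.42 to 0.88 for its step from 6 to 24 h, 0.47 to 0.73 for Dusp6 at 2 h, 0.19 to 0.85 for Dusp6 at 6 h and 0.32 to 0.65 for the step of Dusp10 from 6 to 24 h, with adjusted p on either side of 0.05; Dusp2 at both passed without WT array 3 (6 h) or 39 (24 h), and the Dusp10 step without WT arrays 4, 13 or 18 or Kin- arrays 43 or 44. The Dusp2 difference at 2 h was 1.00 to 1.19 and missed the threshold without Kin- 2 h array 6 (adjusted p = 0.0546) or WT 2 h array 37 (0.057). No other call of the phosphatases turned on 1 array. The replicate block changed no call but those given, could not be fitted for the untreated lines, and the labels do not say that a series pairs its arrays. Dusp6 fell below the filter.

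All probe sets past the threshold numbered 3249, 4441 and 6780 at 2, 6 and 24 h in WT; arrays 1 to 14 only gave 235, 719 and 3183, and array weights 6513 at 2 h. The lowest and highest counts were 0 and 7573 for 6 against 2 h (2948 as reported), 0 and 7322 for 24 against 6 h (4028), 0 and 1685 for the untreated lines (680), and, for the differences, 1 and 3323 at 2 h (1566) and 1 and 4500 at 6 h (2444), with 722 on arrays 1 to 14 at 24 h (4859). In Kin- at most 3 passed at 2 h and 4 at 24 h. The causes were not tested. With no detection calls, signal over background limits Dusp6, Dusp8, Dusp9 (in WT), Dusp16 and untreated Fos to an unknown extent.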
